A study of Mus musculus with 16 samples.

Results

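CCR2+ macrophages sorted from the mouse heart were compared with Ly6c-high monocytes sorted from blood. The samples were chosen by the titles that name these populations, CCR2+ Mac and Ly6cHi Mono, and made up 8 of the 16 arrays of the series, 4 arrays of each. All mice were C57BL/6, a common inbred laboratory strain, and were untreated. Heart tissue had been cut up and enzymatically digested, and living cells, which keep out the dye DAPI, were sorted by flow cytometry. CCR2+ macrophages carried CD45, the common marker of blood-borne cells, and MerTK and CD64, receptors of tissue macrophages. They lacked surface Ly6c and were high for CCR2 and for MHCII. The monocytes are labelled only as Ly6cHi cells of blood, with no further gate. The other arrays held 4 samples each of MHCII-high macrophages (CCR2-negative, CD11c-low) and MHCII-low macrophages (CCR2-negative, CD11c-negative) from heart, sorted with the same CD45, MerTK, CD64 and Ly6c gates. The labels give neither the age of the mice nor whether replicates came from separate mice, so the p-values measure only the spread between these samples, which may be technical.

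Ly6c-high monocytes are made in bone marrow and circulate in blood for a short time. They use CCR2, the receptor for the chemokine CCL2, to leave the marrow and to enter tissue, where they can become macrophages. Tissue macrophages engulf dead cells and debris, break them down in lysosomes, present peptides on MHCII and release signals to neighbouring cells. In the mouse heart the macrophages that carry CCR2 are known to be replenished from blood monocytes, whereas many CCR2-negative macrophages maintain themselves locally. The comparison thus sets a heart population against the blood population known to feed it.

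RNA was measured on single-colour Agilent arrays, from 1 ng of RNA per sample. A gene's level is its log2 signal relative to the 75th percentile of the same array, so that a level below 0 is dimmer than that percentile. Levels were compared only between arrays, never between probes. Differences are CCR2+ macrophages minus monocytes on this log2 scale, ± SE, from a limma fit with n = 4 arrays in each group. The p-values were adjusted by Benjamini-Hochberg over all 22011 genes or unnamed features tested. The 75th percentile of the signal was 1380 to 1680 on the CCR2+ macrophage arrays and 822 to 998 on the monocyte arrays. The share of spots well above background was 61.7% to 68.3% on CCR2+ macrophage arrays and 52.8% to 60.1% on monocyte arrays, and no spot was saturated. Each slide held 1 array of every population, CCR2+ macrophages always at position 4 and monocytes always at position 1. Array position, tissue of origin, digestion and population therefore cannot be told apart. A gene with no monocyte array well above background is given as "at least N-fold" higher, with the monocyte arrays set to the lowest signal called above background there, and likewise where CCR2+ macrophages were dim. Its adjusted p is that of the fitted difference. Named genes that passed the test had their sign on 4 of 4 slides, except Fabp4 with 3 of 4.

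Transcripts of the sorting markers served as a check of the labels. Mertk, which encodes MerTK, had levels of 1.91, 2.11, 2.97 and 1.45 in CCR2+ macrophages. No monocyte array was well above background for Mertk, and the gap was at least 36.5-fold (adjusted p = 2.52e-08). Ly6c1, which encodes a Ly6c protein, had levels of 2.37, 2.55, 3.68 and 1.96 in CCR2+ macrophages, against 6.00, 5.80, 5.76 and 5.50 in monocytes. Every CCR2+ macrophage array lay below every monocyte array for Ly6c1, and the difference was -3.12 ± 0.28, adjusted p = 1.35e-06. All 8 arrays thus followed the labels of their scanner files, as heart macrophages or monocytes, for Mertk and Ly6c1. The other heart macrophages had the same MerTK and Ly6c gates, so these transcripts cannot check CCR2+ labels against CCR2-negative ones. In the authors' deposited value table, which was not used, 12 of 16 columns matched an array of another population best. For Ly6c1, CCR2+ replicate 3 was the highest of its group, and the transcript was well above background on all 4 CCR2+ arrays although the gate excluded surface Ly6c. The probe lies in sequence that the near-identical Ly6c2 may share, and its sequence shows which stretch was read.
Ly6c1: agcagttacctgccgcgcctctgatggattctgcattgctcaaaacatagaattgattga
The MHCII chains H2-Eb1 (2.05 ± 0.23, adjusted p = 1.39e-05), H2-Ab1 (1.86 ± 0.25, adjusted p = 7.91e-05) and H2-Aa (1.22 ± 0.26, adjusted p = 0.00284) were higher in CCR2+ macrophages. Ccr2 itself had levels of 0.85, 0.62, 0.42 and 0.54 in CCR2+ macrophages, against 1.15, 0.94, 1.28 and 1.08 in monocytes. The arrays of the 2 groups did not overlap for Ccr2, with every CCR2+ macrophage array below every monocyte array, but the difference did not pass the test (-0.50 ± 0.33, 95% interval from -1.20 to 0.19, adjusted p = 0.316). Such a lack of overlap, in either direction, held for 5533 of 22011 genes or unnamed features tested (25.1%). Fcgr1, which encodes CD64, had levels of 3.09, 2.98, 3.46 and 2.97 in CCR2+ macrophages, against 2.86, 2.87, 3.03 and 2.52 in monocytes, and the groups overlapped (0.31 ± 0.18, 95% interval from -0.07 to 0.69, adjusted p = 0.259, or 0.0481 with the replicate block). Both transcripts were well above background on every array of both populations. Ptprc, which encodes CD45, was lower (-0.65 ± 0.18, adjusted p = 0.0198), a call that was lost without CCR2+ replicate 2 (adjusted p = 0.0569), CCR2+ replicate 4 (adjusted p = 0.0663), monocyte replicate 3 (adjusted p = 0.0548) or monocyte replicate 4 (adjusted p = 0.052). The call was also lost with quantile scaling, at -0.28 (adjusted p = 0.285), median scaling, at -0.70 (adjusted p = 0.0776), normexp, at -0.48 (adjusted p = 0.0742), or a fit on only the 8 arrays, at -0.65 (adjusted p = 0.0531).

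limma called 4850 genes different, which is 22.0% of those tested, with 2168 higher (9.85%) and 2682 lower (12.2%) in CCR2+ macrophages. With the replicate number as a block, 7468 genes were called (33.9%), 3073 higher and 4395 lower. With genes dim in one population counted at their bound, 447 genes were at least 4-fold higher and 224 at least 4-fold lower. Of the genes called higher, 503 had no monocyte array well above background, and of those called lower 52 had no such CCR2+ macrophage array. The filter asked for at least 4 arrays of any population above background, and most arrays were from heart, so these counts of dim genes cannot be compared. Counts of list members below share this limit where members were dim in monocytes. With no filter on dim probes 2346 genes were called higher and 6255 lower. The median difference over all genes was -0.10. Where a list below had no member called in one direction by limma, none had an unadjusted p under 0.05 there either, except 1 iron and heme gene and 2 Fc receptors that were lower. With normexp background correction 1557 of 5237 calls were higher, a share of 29.7% against 44.7% here, and the median over all genes was -0.25. Among the 12 named genes with the highest differences were complement C1qc and C1qa, the chemokines Ccl12, Cxcl16 and Ccl4, and the matrix protease Mmp12. The group also held Cd81, a tetraspanin of the cell surface (at least 114-fold higher, adjusted p = 2.82e-10), Slco2b1, an organic anion transporter (at least 39.6-fold, adjusted p = 6.3e-10), and Mt2, a metal-binding metallothionein (at least 44.2-fold, adjusted p = 3.49e-08). Among the 12 with the lowest differences were 5 haemoglobin genes, Plac8, Ifitm6, Ly6a2 (-6.59 ± 0.58, adjusted p = 1.01e-06, above background on 2 of 4 CCR2+ arrays) and Gm9733 (-5.61 ± 0.44, adjusted p = 2.36e-07, above background on 3 of 4 CCR2+ arrays). S1pr5, a receptor for sphingosine 1-phosphate, was in the same set (-5.51 ± 0.68, adjusted p = 3.22e-05, above background on 3 of 4 CCR2+ arrays).

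**Figure D1:**
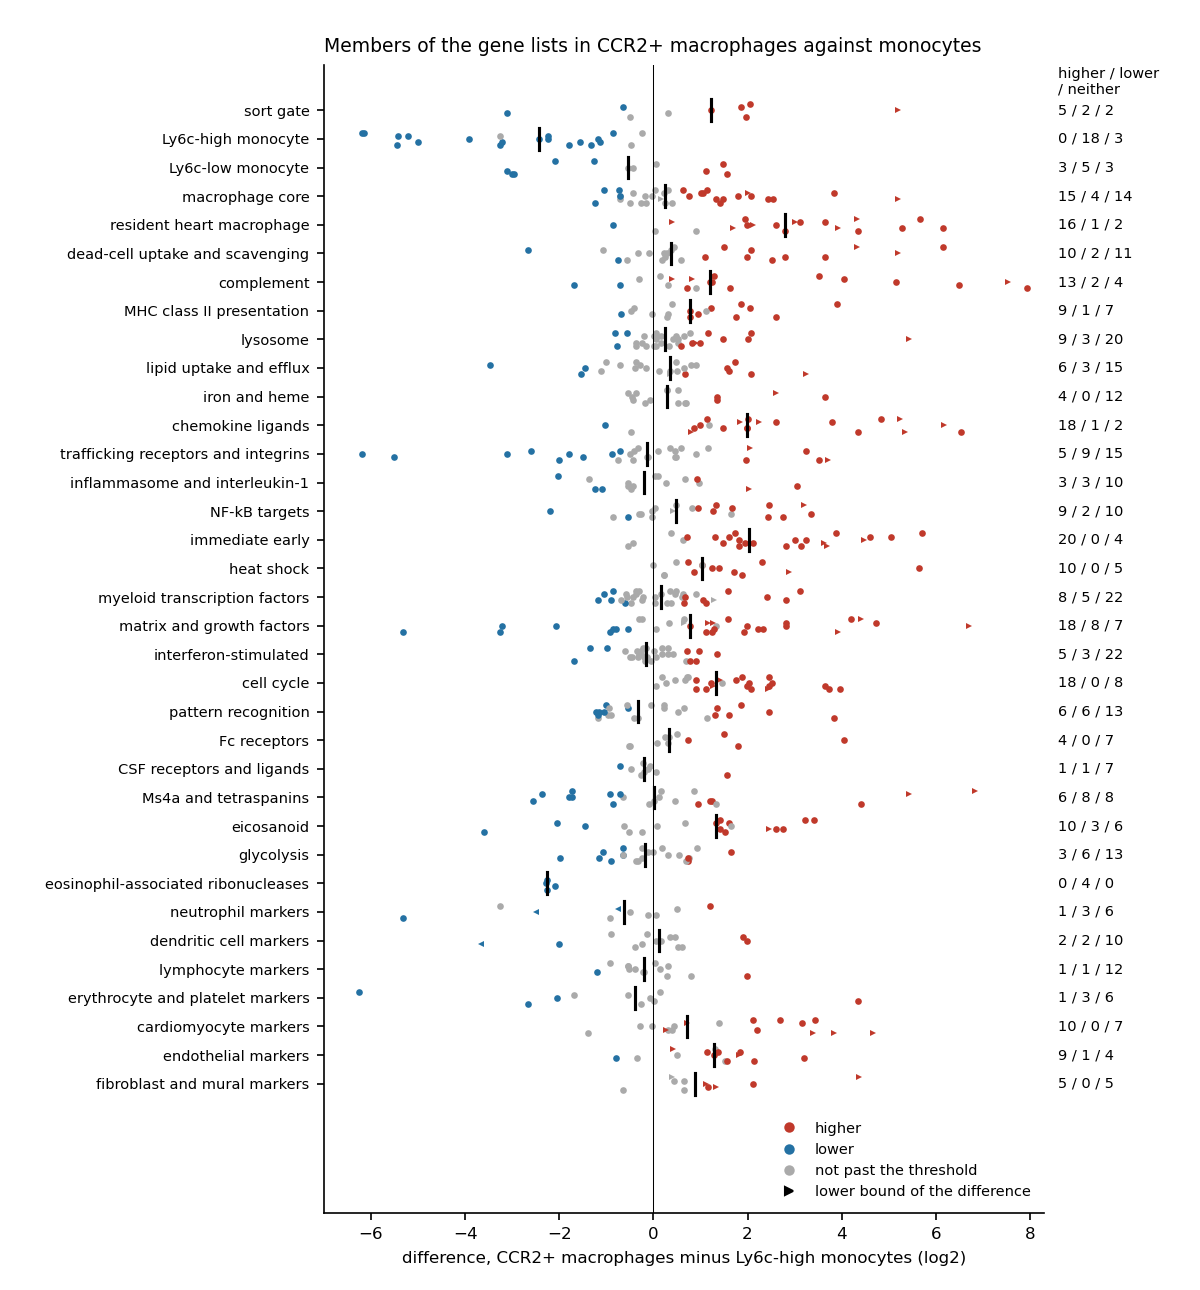
Difference of each measured member of the gene lists, CCR2+ macrophages minus Ly6c-high monocytes (log2), with 1 point per gene. Black bars mark the list medians with dim genes at their bound. The counts of genes higher, lower or neither stand at the right. Triangles are lower bounds for genes dim in one group. Members of the resident, complement, chemokine and immediate early lists lay mostly to the right of 0, and members of the Ly6c-high monocyte and eosinophil-associated ribonuclease lists to the left.

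Most genes of complement, a cascade of plasma proteins that tags debris and microbes for uptake, were higher in CCR2+ macrophages, the C1q chains by the most. Of 19 measured complement genes 13 were higher, 2 lower and 4 passed neither way, with a median difference of 1.29 (1.15 to 1.99 by slide), against -0.10 over all genes. C1q, which starts the classical pathway, is built from 3 chains whose genes lie together on chromosome 4. C1qa had levels of 5.91, 5.91, 6.45 and 5.92 in CCR2+ macrophages, against -2.46, -1.72, -2.17 and -1.18 in monocytes. C1qb had levels of 7.35, 7.05, 7.53 and 7.27 in CCR2+ macrophages, against 0.18, 0.61, 1.19 and 1.26 in monocytes. No array of one group came near the other for either gene, and the differences were 7.93 ± 0.25, adjusted p = 2.36e-11 for C1qa and 6.49 ± 0.27, adjusted p = 3.38e-10 for C1qb. C1qc, at levels of 4.70, 4.27, 4.45 and 4.40 in CCR2+ macrophages, was not well above background in monocytes and was at least 186-fold higher (adjusted p = 5.14e-14). The C1qa and C1qb probes are shown because the C1q chains had the highest differences of the list, and at their best alignment they agree at 7 of 16 overlapping bases.
C1qa: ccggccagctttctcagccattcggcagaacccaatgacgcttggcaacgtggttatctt
C1qb: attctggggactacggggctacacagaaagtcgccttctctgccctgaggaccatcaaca

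Receptors for the complement fragments that attract and activate cells were higher as well. C3ar1, the receptor for C3a, had levels of 4.70, 4.75, 4.77 and 4.48 in CCR2+ macrophages, against -0.15, -0.80, -0.66 and -0.30 in monocytes (5.15 ± 0.18, adjusted p = 9.02e-11). C5ar1, the receptor for C5a, was higher too (3.51 ± 0.37, adjusted p = 6.04e-06, above background on 3 of 4 monocyte arrays). Of the later components, C4b (4.05 ± 0.33, adjusted p = 3.32e-07) and C2 (1.62 ± 0.27, adjusted p = 0.000513) were higher. C3, the central component that the classical pathway cleaves, was lower, with levels of 2.82, 2.30, 1.97 and 1.82 in CCR2+ macrophages, against 4.14, 3.68, 4.09 and 3.76 in monocytes (-1.69 ± 0.27, adjusted p = 0.000291). Every CCR2+ array lay below every monocyte array for C3. C4b and C2 stood between the blood and the other heart populations, as described below for resident genes.

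Genes of resident heart macrophages were nearly all higher in CCR2+ macrophages than in monocytes, and 11 of them were lower than in both CCR2-negative heart populations. Of 19 measured members 16 were higher, 1 was lower and 2 passed neither way. Their median difference was 3.27. It was 2.79 with dim genes at their bound, and on single slides 3.06 to 3.98. Stab1, a scavenger receptor also found on sinus endothelium (6.15 ± 0.25, adjusted p = 2.82e-10, above background on 2 of 4 monocyte arrays), Folr2, a folate receptor (5.66 ± 0.33, adjusted p = 9.63e-09, above background on 1 of 4 monocyte arrays), and Cbr2, a carbonyl reductase (5.29 ± 0.23, adjusted p = 5.37e-10), were higher, each above background on at least 1 monocyte array. Mrc1, the mannose receptor CD206, was higher by at least 20.2-fold (adjusted p = 1.24e-09), and Igf1, insulin-like growth factor 1, at least 15.1-fold (adjusted p = 6.3e-10). The transcription factor Maf, which drives resident macrophage genes, had levels of 2.79, 2.27, 2.45 and 2.04 in CCR2+ macrophages, against -0.75, -0.97, -0.70 and -0.48 in monocytes (3.11 ± 0.24, adjusted p = 2.22e-07). The list follows published studies of heart macrophages, which may include these samples, and is not independent evidence of its direction.

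In 65 genes, CCR2+ macrophages were higher than monocytes and lower than both CCR2-negative populations, each by its own test in the fit. Against MHCII-high macrophages 1.26% of all genes were called, and against MHCII-low macrophages 2.81%. The count of 65 was 43 without CCR2+ replicate 1 or 4, 34 without CCR2+ replicate 2, 28 with median scaling and 118 with the replicate block. The resident list supplied 11 of them. The haemoglobin scavenger receptor Cd163 averaged 1.89 ± 0.35 in CCR2+, 4.05 ± 0.26 in MHCII-high and 4.45 ± 0.31 in MHCII-low cells, and -1.77 ± 0.16 in monocytes. Its differences were 3.65 ± 0.22, adjusted p = 1.3e-08 against monocytes, -2.16 ± 0.22, adjusted p = 8.35e-05 against MHCII-high and -2.56 ± 0.22, adjusted p = 7.41e-06 against MHCII-low macrophages. Fcna, a ficolin that starts the lectin pathway of complement, averaged -0.07 ± 0.27 in CCR2+, 2.39 ± 0.75 in MHCII-high and 3.90 ± 0.29 in MHCII-low cells, and -4.47 ± 0.45 in monocytes, and was not well above background in monocytes. Folr2 averaged 2.35 ± 0.19 in CCR2+, 4.20 ± 0.27 in MHCII-high and 4.92 ± 0.30 in MHCII-low cells, and -3.31 ± 0.84 in monocytes. The order was the same for both, with monocytes lowest, CCR2+ macrophages next and the CCR2-negative populations above them. C4b (-2.37 ± 0.33, adjusted p = 0.00143 against MHCII-high macrophages), C2 (-2.58 ± 0.27, adjusted p = 0.000128), the iron oxidase Cp (-2.03 ± 0.20, adjusted p = 8.35e-05) and Ltc4s, which makes leukotriene C4 (-1.54 ± 0.23, adjusted p = 0.00266), belonged to the same set. Timd4, which binds phosphatidylserine of dying cells, was above background on 3 of 4 CCR2+ arrays and no monocyte array, and its difference from MHCII-high macrophages was -2.92 ± 0.25, adjusted p = 2.18e-05. The comparisons share the CCR2+ arrays and are not separate evidence. F13a1, the coagulation factor XIII subunit, was the resident gene called lower than in monocytes. It averaged 2.71 ± 0.24 in CCR2+, 4.14 ± 0.33 in MHCII-high and 4.65 ± 0.26 in MHCII-low cells, and 3.57 ± 0.14 in monocytes. The CCR2+ value was the lowest of all 4 populations (-0.86 ± 0.20, adjusted p = 0.00637 against monocytes, -1.43 ± 0.20, adjusted p = 0.00171 against MHCII-high macrophages).

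Genes of circulating Ly6c-high monocytes were lower in CCR2+ macrophages without exception among those that passed. Of 21 measured members 18 were lower, 0 higher and 3 passed neither way, with a median of -2.44 (-2.60 to -1.75 by slide). This list too draws on published work and is not independent evidence of its direction. Plac8, a small cysteine-rich protein of leukocytes, had levels of 0.53, 1.22, 2.78 and -0.86 in CCR2+ macrophages, against 6.68, 6.22, 6.42 and 6.12 in monocytes (-5.45 ± 0.56, adjusted p = 5.08e-06). Hp, the haemoglobin-binding plasma protein haptoglobin, had levels of 0.35, 0.85, 1.81 and -1.13 in CCR2+ macrophages, against 5.83, 5.76, 5.85 and 5.30 in monocytes (-5.21 ± 0.45, adjusted p = 7.65e-07). For both genes the groups did not overlap, and the spread was far wider among the CCR2+ arrays than among the monocyte arrays. Chil3, a chitinase-like protein (-5.01 ± 0.66, adjusted p = 5.72e-05), Gsr, glutathione reductase (-3.91 ± 0.23, adjusted p = 1.31e-08), and Mgst1, a glutathione transferase (-5.43 ± 0.62, adjusted p = 1.49e-05, above background on 2 of 4 CCR2+ arrays), were lower too. S100a9, a subunit of calprotectin, did not pass (-3.27 ± 1.30, 95% interval from -6.05 to -0.50, adjusted p = 0.0889, or 0.0312 with the replicate block, above background on 2 of 4 CCR2+ arrays). Without CCR2+ replicate 3 its difference was -4.16 (adjusted p = 0.0405). F10, coagulation factor X, did not pass either (-0.24 ± 0.22, 95% interval from -0.70 to 0.22, adjusted p = 0.499), but was -1.72 (adjusted p = 0.000522) with the mean of its probes.

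The level of monocyte transcripts was uneven between CCR2+ arrays. CCR2+ replicate 3 was the highest of its group for 18 of the 21 monocyte genes, and replicate 2 for the other 3. The list's summed signal, on the linear scale, was 374, 333, 452 and 314 on the CCR2+ arrays in replicate order, against 1040, 858, 1030 and 777 on the monocyte arrays, so no CCR2+ array reached the lowest monocyte array. The list's median level was 0.53, 1.00, 1.70 and -0.10 on CCR2+ arrays, against 4.41, 4.29, 4.44 and 3.98 on monocyte arrays. Replicate 3 was also highest for 14 of 15 heat shock genes, 23 of 30 interferon-stimulated genes and 10 of 19 resident genes. Replicate 1 led for 23 of 32 lysosome and 13 of 24 immediate early genes. CCR2+ replicates 2 and 4 led for 5 and 7 of 14 lymphocyte markers. Monocyte replicates 1 and 3, on the same slides as CCR2+ replicates 1 and 3, led for 10 and 8 of the 21 monocyte genes. For interferon-stimulated genes they led for 19 and 9 of 30. Over all features tested CCR2+ replicate 3 was the highest CCR2+ array for 23% of them, and replicate 1 for 26.8%. CCR2+ replicates 2 and 4 were highest for 24.1% and 26.1%, and among monocyte arrays replicates 1 and 3 for 25.1% and 25.4%. The part of the slides, or of monocytes sorted with the macrophages, in this unevenness was not tested.

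Some genes were lower in CCR2+ macrophages than in blood monocytes and still higher than in both CCR2-negative populations. Of all features tested 54 had this order, 50 of them with a gene symbol, and 5 were among the 21 measured Ly6c-high monocyte genes. The count of 54 was 39 to 50 when 1 CCR2+ or monocyte array was left out, 96 with the replicate block and 104 with array weights. Plac8 averaged 0.92 ± 1.51 in CCR2+, -2.12 ± 0.41 in MHCII-high and -2.24 ± 0.68 in MHCII-low cells, and 6.36 ± 0.25 in monocytes. It was higher than in MHCII-high macrophages by 3.04 ± 0.56, adjusted p = 0.0126. Fn1, the matrix protein fibronectin, averaged 1.33 ± 0.79 in CCR2+, -5.00 ± 1.12 in MHCII-high and -3.35 ± 0.90 in MHCII-low cells, and 4.54 ± 0.25 in monocytes, with -3.21 ± 0.54, adjusted p = 0.000492 against monocytes and 4.68 ± 0.54, adjusted p = 0.000123 against MHCII-low macrophages. In MHCII-high macrophages Fn1 was not well above background. Itgb7, an integrin chain that pairs with Itga4 in homing to gut (-2.60 ± 0.18, adjusted p = 5.69e-08), and Mefv, the inflammasome sensor pyrin (-2.03 ± 0.28, adjusted p = 0.000105), had the same order, with 0.99 ± 0.18, adjusted p = 0.0105 for Itgb7 and 2.15 ± 0.28, adjusted p = 0.00114 for Mefv against MHCII-high macrophages.

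The eosinophil-associated ribonucleases, small secreted enzymes that cut RNA, showed this order in all 4 measured members. Ear2 had levels of 1.52, 1.43, 1.45 and 1.00 in CCR2+ macrophages, against 3.46, 3.39, 4.17 and 3.48 in monocytes (-2.27 ± 0.24, adjusted p = 6.35e-06), and was not well above background on any CCR2-negative array. Ear1 (-2.27 ± 0.31, adjusted p = 8.11e-05), Ear10 (-2.10 ± 0.27, adjusted p = 5.01e-05) and Ear12 (-2.29 ± 0.39, adjusted p = 0.000596) were lower by about as much. The probes are not independent readings. Of 48 aligned bases the Ear10 probe shares 42 with the Ear12 probe, and the Ear1 probe shares 21 of 22, so transcripts of one gene may bind both. Capitals mark the bases shared with the Ear12 probe.
Ear1: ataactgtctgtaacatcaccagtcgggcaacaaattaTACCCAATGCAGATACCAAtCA
Ear10: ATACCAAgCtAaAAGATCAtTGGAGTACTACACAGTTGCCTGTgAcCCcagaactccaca

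**Figure D2:**
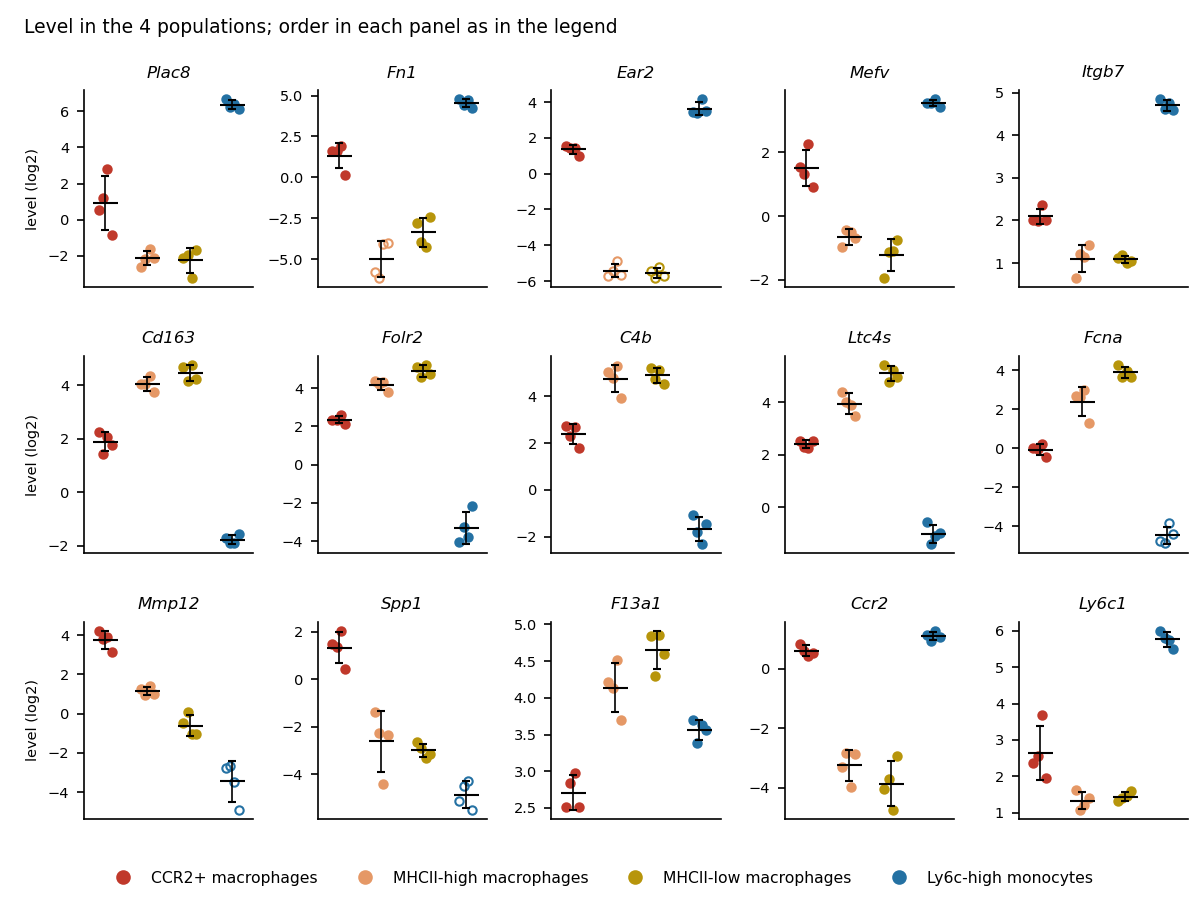
Level of 15 genes on every array (log2 relative to the array's 75th percentile), from left to right CCR2+, MHCII-high and MHCII-low macrophages and Ly6c-high monocytes, with mean and SD as bars and open circles where no array of a group was well above background. In the top row CCR2+ macrophages lay below monocytes and above the CCR2-negative populations, and in the middle row above monocytes and below them.

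Genes linked to Ly6c-low patrolling monocytes, the other blood monocyte, moved both ways. Of 11 measured members 3 were higher, 5 lower and 3 passed neither way, for a median of -0.55, beside 9.85% of all genes higher and 12.2% lower. The number called was 8 in all, and 5 without CCR2+ replicate 2 or monocyte replicate 1. Itgal, the integrin chain CD11a, had levels of 2.08, 0.91, 1.16 and 1.32 in CCR2+ macrophages, against 4.29, 4.47, 4.68 and 4.48 in monocytes (-3.11 ± 0.27, adjusted p = 8.21e-07). Ace, the angiotensin-converting enzyme, had levels of 2.03, 1.59, 1.70 and 1.65 in CCR2+ macrophages, against 4.77, 4.27, 5.12 and 4.81 in monocytes (-3.00 ± 0.20, adjusted p = 5.07e-08). The groups did not overlap for either gene. Treml4, a receptor that binds dead cells, was also lower (-2.96 ± 0.35, adjusted p = 2.33e-05). The members called higher were Cd300e, an activating receptor of myeloid cells (1.12 ± 0.36, adjusted p = 0.0375), Fabp4, a fatty acid carrier (1.57 ± 0.43, adjusted p = 0.016), and Dusp16, a phosphatase of MAP kinases (1.47 ± 0.44, adjusted p = 0.0261, above background on 2 of 4 monocyte arrays). The Cd300e call was lost without CCR2+ replicate 1 (adjusted p = 0.0577), CCR2+ replicate 2 (adjusted p = 0.122), monocyte replicate 1 (adjusted p = 0.113), monocyte replicate 2 (adjusted p = 0.0559), monocyte replicate 3 (adjusted p = 0.0505) or monocyte replicate 4 (adjusted p = 0.0594). That for Fabp4 was lost without monocyte replicate 1 (adjusted p = 0.0518), and that for Dusp16 was lost without CCR2+ replicate 1 (adjusted p = 0.0607), CCR2+ replicate 2 (adjusted p = 0.0675), monocyte replicate 1 (adjusted p = 0.0836) or monocyte replicate 2 (adjusted p = 0.0795). With normexp Dusp16 was 0.26 (adjusted p = 0.591). The fractalkine receptor Cx3cr1 (-0.43 ± 0.35, 95% interval from -1.18 to 0.33, adjusted p = 0.455) and the orphan nuclear receptor Nr4a1 (-0.55 ± 0.31, 95% interval from -1.22 to 0.11, adjusted p = 0.243, or 0.0305 with the replicate block) overlapped between the groups.

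Chemokine ligands, the secreted proteins that call in leukocytes, were mostly higher in CCR2+ macrophages. Of 21 measured ligands 18 were higher, 1 was lower and 2 passed neither way, with a median of 2.60, or 1.99 with dim genes at their bound (2.14 to 3.33 by slide). Ccl4, which attracts monocytes and T cells, had levels of 3.84, 3.25, 3.36 and 2.49 in CCR2+ macrophages, against -3.46, -3.10, -1.96 and -4.67 in monocytes (6.53 ± 0.49, adjusted p = 1.75e-07, above background on 1 of 4 monocyte arrays). Cxcl16, a membrane-bound ligand that also takes up oxidised lipid, was at least 72.3-fold higher (adjusted p = 2.82e-10). Ccl12, a ligand of CCR2, was higher by at least 40.8-fold (adjusted p = 5.37e-10), and Ccl3, a ligand of CCR1, by at least 37.9-fold (adjusted p = 1.19e-08). None of these 3 was well above background on a monocyte array. Ccl7, which also binds CCR2, was higher by at least 4.73-fold (adjusted p = 3.92e-06), and Ccl8 was higher (4.83 ± 0.63, adjusted p = 5.06e-05, above background on 1 of 4 monocyte arrays). Ccl2, the chief ligand of CCR2, had levels of 1.88, 2.02, 1.89 and 1.86 in CCR2+ macrophages, against 0.80, 1.14, 0.64 and 1.15 in monocytes (0.98 ± 0.20, adjusted p = 0.00258). Cxcl10, induced by interferon, was higher (3.80 ± 0.43, adjusted p = 1.42e-05, above background on 2 of 4 monocyte arrays). Ccl6 was the ligand called lower (-1.03 ± 0.23, adjusted p = 0.00416).

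Receptors and integrins that steer cells through blood and tissue showed no common direction. Of 29 measured genes 5 were higher, 9 lower and 15 passed neither way, for a median of -0.14, beside 9.85% of all genes higher and 12.2% lower. S1pr5, given above, and S1pr4 (-2.01 ± 0.32, adjusted p = 0.000359), receptors for the lipid that guides exit into blood, were lower, while the related S1pr1 was at least 4.15-fold higher (adjusted p = 1.57e-06). The integrin chains Itga4 (-1.79 ± 0.27, adjusted p = 0.00018) and Itgb2 (-0.87 ± 0.20, adjusted p = 0.00586) were lower.

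Inflammatory genes were higher in part. Of 21 targets of the transcription factor NF-kB 9 were higher, 2 lower and 10 passed neither way, for a median of 0.81, or 0.48 with bounds. Tnf, tumour necrosis factor, had levels of 3.48, 3.52, 3.54 and 3.46 in CCR2+ macrophages, against -0.05, 0.33, 0.23 and 0.14 in monocytes (3.34 ± 0.16, adjusted p = 1.08e-09). Nfkbiz, a nuclear member of the inhibitor family (2.76 ± 0.23, adjusted p = 5.33e-07), Socs3, an inhibitor of cytokine signalling (2.45 ± 0.25, adjusted p = 4.19e-06), and Zfp36, which destabilises cytokine transcripts (2.43 ± 0.25, adjusted p = 4.46e-06), were higher. Tnfaip2 was lower (-2.19 ± 0.34, adjusted p = 0.00026). Il1b, the cytokine interleukin-1 beta, had levels of 3.37, 3.39, 3.60 and 2.75 in CCR2+ macrophages, against 0.05, -0.12, 0.62 and 0.36 in monocytes (3.05 ± 0.21, adjusted p = 6.14e-08), with every CCR2+ array above every monocyte array. The wider inflammasome and interleukin-1 list had 3 of 16 higher, 3 lower and 10 neither, or 3 higher and 7 lower with the replicate block. Among all genes 9.85% were higher and 12.2% lower, or 14.0% and 20.0% with the block. Nlrp3 (0.09 ± 0.18, 95% interval from -0.29 to 0.47, adjusted p = 0.789) and Il18 (0.03 ± 0.30, 95% interval from -0.60 to 0.67, adjusted p = 0.959) did not pass. Pycard, the adaptor ASC, was lower (-1.09 ± 0.23, adjusted p = 0.00259).

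Immediate early genes, which are switched on within minutes of a stimulus, were higher in CCR2+ macrophages almost throughout. Of 24 measured members 20 were higher, 0 lower and 4 passed neither way, with a median of 2.03 (1.82 to 2.54 by slide). Fosb, a partner of Jun in the AP-1 factor, had levels of 4.94, 4.69, 4.92 and 4.68 in CCR2+ macrophages, against -0.31, -0.20, -0.51 and 0.09 in monocytes (5.04 ± 0.21, adjusted p = 2.82e-10). Jun had levels of 5.30, 5.14, 5.51 and 5.03 in CCR2+ macrophages, against 0.64, 0.83, 0.65 and 0.40 in monocytes (4.61 ± 0.20, adjusted p = 4.76e-10). All CCR2+ arrays were close together and far above all monocyte arrays for both. Egr1, a zinc finger factor (5.70 ± 0.26, adjusted p = 6.3e-10, above background on 2 of 4 monocyte arrays), Fos (3.24 ± 0.33, adjusted p = 4.97e-06), Atf3 (2.82 ± 0.24, adjusted p = 5.91e-07) and the phosphatase Dusp1 (3.00 ± 0.29, adjusted p = 2.15e-06) were higher. Rgs1, a brake on chemokine receptor signalling, was higher by at least 22.1-fold (adjusted p = 7.13e-09), and Egr2 at least 12.9-fold (adjusted p = 8.25e-10). With the replicate block 21 members were higher and 2 lower. Against MHCII-high macrophages 1 of 24 members passed, beside 1.26% of all genes, and against MHCII-low macrophages 2 of 24, beside 2.81%. The labels name digestion for heart tissue, so digestion and population cannot be told apart here.

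Heat shock genes, chaperones induced by protein damage, were higher in the same samples. Of 15 measured members 10 were higher, 0 lower and 5 passed neither way, for a median of 1.04. Hspa1a, the inducible Hsp70, had levels of 4.04, 3.98, 4.77 and 3.96 in CCR2+ macrophages, against -1.55, -1.76, -1.89 and -0.67 in monocytes (5.65 ± 0.31, adjusted p = 6.36e-09). Its probe may also take the near-identical Hspa1b. Hsph1, its exchange factor, had levels of 0.82, 1.12, 1.88 and 0.65 in CCR2+ macrophages, against -1.98, -1.67, -0.50 and -0.60 in monocytes (2.30 ± 0.53, adjusted p = 0.00525), and the small chaperone Hspb1 was at least 7.42-fold higher (adjusted p = 0.000131). Hsp90aa1 (1.89 ± 0.25, adjusted p = 7.11e-05), Dnaja1 (1.72 ± 0.27, adjusted p = 0.000273) and Dnajb1 (1.40 ± 0.30, adjusted p = 0.00296) were higher, whereas Hspa8, the constitutive Hsc70, did not pass (0.23 ± 0.24, 95% interval from -0.28 to 0.75, adjusted p = 0.569). CCR2+ replicate 3 was highest for 14 of 15 members. Between CCR2+ macrophages and the CCR2-negative populations limma called 0 members against MHCII-high and 0 against MHCII-low macrophages, with 0 and 0 at an unadjusted p under 0.05 and 0 and 0 called with the replicate block.

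The promoters of these genes were read for the core of the heat shock element, GAANNTTC, which reads the same on both strands. Of 11 heat shock genes with a promoter in the table (300 bases, 250 before to 50 after the gene start, RefSeq, build GRCm38.p6), 6 held it, against 2149 of all 27025 promoters (7.95%). Hspa1a, Hsph1, Hspb1 and Dnaja1 were among the genes higher, and Hspe1 and Bag3 among those that passed neither way. A match is only a run of letters. The promoters of 4 genes with a match are shown with the match in capitals, at chr17:34972107-34972406 on the minus strand for Hspa1a, chr5:149636287-149636586 on the minus strand for Hsph1, chr5:135887669-135887968 on the plus strand for Hspb1 and chr4:40722218-40722517 on the plus strand for Dnaja1.
Hspa1a: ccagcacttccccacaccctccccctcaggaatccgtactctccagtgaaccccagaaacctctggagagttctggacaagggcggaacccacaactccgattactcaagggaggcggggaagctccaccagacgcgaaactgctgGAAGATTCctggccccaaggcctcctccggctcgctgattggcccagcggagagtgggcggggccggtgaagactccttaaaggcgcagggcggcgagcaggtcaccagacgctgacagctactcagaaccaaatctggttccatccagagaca
Hsph1: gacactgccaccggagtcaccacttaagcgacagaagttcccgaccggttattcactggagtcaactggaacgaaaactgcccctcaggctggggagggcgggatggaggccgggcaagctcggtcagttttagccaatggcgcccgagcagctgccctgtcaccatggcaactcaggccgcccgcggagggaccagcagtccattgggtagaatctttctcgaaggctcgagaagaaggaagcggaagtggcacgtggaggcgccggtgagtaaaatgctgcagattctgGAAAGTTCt
Hspb1: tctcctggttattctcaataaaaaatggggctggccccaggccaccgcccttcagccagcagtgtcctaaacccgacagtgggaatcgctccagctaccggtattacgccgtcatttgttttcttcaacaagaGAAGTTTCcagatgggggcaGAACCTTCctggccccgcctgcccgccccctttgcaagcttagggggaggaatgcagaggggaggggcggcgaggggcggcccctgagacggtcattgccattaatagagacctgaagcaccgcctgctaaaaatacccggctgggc
Dnaja1: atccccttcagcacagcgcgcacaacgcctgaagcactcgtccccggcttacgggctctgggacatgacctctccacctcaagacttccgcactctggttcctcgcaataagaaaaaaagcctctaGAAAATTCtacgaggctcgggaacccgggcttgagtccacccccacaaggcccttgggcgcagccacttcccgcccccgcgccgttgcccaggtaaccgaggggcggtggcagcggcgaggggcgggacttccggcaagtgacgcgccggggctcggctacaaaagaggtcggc

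**Figure D3:**
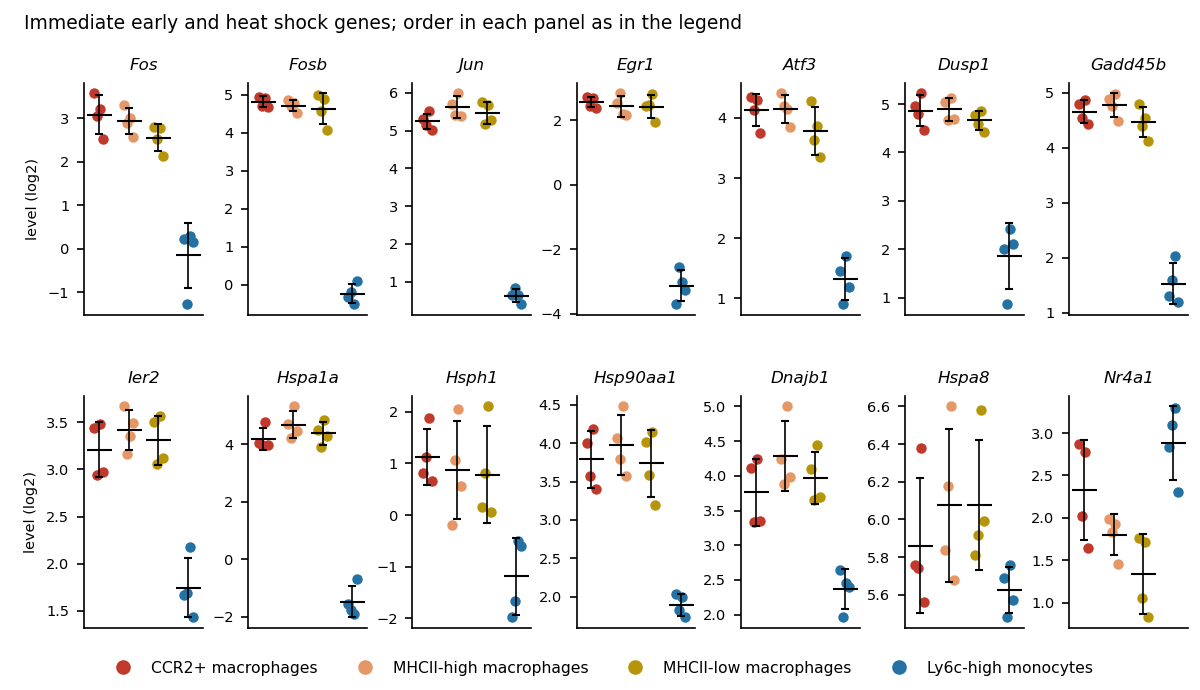
Level of 14 immediate early and heat shock genes on every array (log2 relative to the array's 75th percentile), from left to right CCR2+, MHCII-high and MHCII-low macrophages and Ly6c-high monocytes, with mean and SD as bars. For Fosb, Jun and Hspa1a the 12 heart arrays lay above all 4 monocyte arrays, while Hspa8 and Nr4a1 overlapped.

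Matrix and growth factor genes moved in both directions. Of 33 measured members 18 were higher, 8 lower and 7 passed neither way, for a median of 1.25, or 0.77 with bounds. Mmp12, the macrophage elastase, had levels of 4.21, 3.81, 3.91 and 3.14 in CCR2+ macrophages, was not well above background in monocytes and was at least 104-fold higher (adjusted p = 9.73e-09). Osteopontin, a matrix protein encoded by Spp1, had levels of 1.47, 1.38, 2.04 and 0.45 in CCR2+ macrophages and was likewise dim in monocytes, so that CCR2+ macrophages were at least 21.4-fold higher (adjusted p = 5.18e-07). Both were also higher than in MHCII-high macrophages, by 2.62 ± 0.42, adjusted p = 0.00448 for Mmp12 and 3.95 ± 0.52, adjusted p = 0.00107 for Spp1. Pdgfa, a growth factor for mesenchymal cells, had levels of 2.93, 2.34, 2.85 and 2.46 in CCR2+ macrophages, against -2.19, -2.44, -1.88 and -1.82 in monocytes (4.73 ± 0.22, adjusted p = 7.69e-10). Mmp14, a membrane-bound collagenase (4.20 ± 0.47, adjusted p = 1.15e-05), Osm, the cytokine oncostatin M (2.82 ± 0.39, adjusted p = 9.76e-05, above background on 1 of 4 monocyte arrays), and Timp2, a protease inhibitor (1.99 ± 0.21, adjusted p = 6.06e-06), were higher. Fn1, given above, Vcan, the proteoglycan versican (-3.26 ± 0.66, adjusted p = 0.00227), and Plaur, the urokinase receptor (-2.06 ± 0.41, adjusted p = 0.00182), were lower. Mmp8, a collagenase of neutrophil granules, was lower (-5.32 ± 0.90, adjusted p = 0.000528, above background on 2 of 4 CCR2+ arrays).

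Antigen presentation genes were higher in part. Of 17 measured genes 9 were higher, 1 lower and 7 passed neither way, for a median of 0.78. The sort chose MHCII-high cells, so the H2 chains, which these counts and this median include, are no finding. Cd83, which stabilises MHCII at the surface, had levels of 3.86, 3.51, 3.85 and 3.36 in CCR2+ macrophages, against -1.20, -1.22, 0.33 and 1.05 in monocytes (3.91 ± 0.40, adjusted p = 5.16e-06). Cd86, a co-stimulatory ligand for T cells, was higher too (2.61 ± 0.29, adjusted p = 1.29e-05), while Cd40 (-0.03 ± 0.28, 95% interval from -0.63 to 0.57, adjusted p = 0.964), Cd80 (-0.42 ± 0.29, 95% interval from -1.03 to 0.19, adjusted p = 0.341) and the master regulator Ciita (0.31 ± 0.21, 95% interval from -0.13 to 0.75, adjusted p = 0.33) did not pass. Dendritic cells are the other MHCII-bearing cells a heart sort could hold. Of their 14 measured markers 2 were higher, 2 lower and 10 neither, beside 9.85% of all genes higher and 12.2% lower. The members called higher were Ccl17, a chemokine for T cells that mature dendritic cells make, with levels of 0.78, 0.05, -0.63 and -1.34 in CCR2+ macrophages and a mean of -2.27 ± 0.25 (SD, n = 4) in monocytes (1.99 ± 0.38, adjusted p = 0.00136), and Fscn1, the actin-bundling protein fascin (1.91 ± 0.35, adjusted p = 0.000944, above background on 3 of 4 monocyte arrays). Ccl17 was also higher than in MHCII-high macrophages (1.80 ± 0.38, adjusted p = 0.0268) and in MHCII-low macrophages (2.03 ± 0.38, adjusted p = 0.00672). Against MHCII-high macrophages 3 of the 14 markers were called higher by limma and 0 lower (2 lower at an unadjusted p under 0.05), with 0.622% of all genes higher, and against MHCII-low macrophages 4 were higher and 1 lower, with 1.51% of all genes higher. The summed linear signal of the dendritic list was 42.0 to 50.5 on CCR2+ arrays and 51.5 to 56.6 on monocyte arrays. Its median difference from monocytes was 0.12 (-0.29 to 0.34 by slide). The lineage factor Zbtb46 (0.46 ± 0.27, 95% interval from -0.13 to 1.04, adjusted p = 0.275) and Flt3 (0.06 ± 0.34, 95% interval from -0.65 to 0.78, adjusted p = 0.929, above background on 3 of 4 monocyte arrays) did not pass. With the mean of its probes Flt3 was -1.24 (adjusted p = 0.0308). Btla, an inhibitory receptor of lymphocytes and some dendritic cells, was at least 12.6-fold lower (adjusted p = 2.18e-08). The part of dendritic cells in these results was not tested.

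Genes for taking up dead cells and debris were higher in part. Of 23 measured 10 were higher, 2 lower and 11 passed neither way, for a median of 0.44. The shares to set beside this and the next lists were 9.85% of all genes higher and 12.2% lower. Axl, a relative of MerTK (2.51 ± 0.32, adjusted p = 4.7e-05), Gas6, the ligand that bridges both to dying cells (2.79 ± 0.21, adjusted p = 1.69e-07), and Cd36, a receptor for oxidised lipid (2.07 ± 0.36, adjusted p = 0.000605, above background on 3 of 4 monocyte arrays), were higher. The lipoprotein receptor Scarb1 was lower (-2.67 ± 0.30, adjusted p = 1.38e-05). The lysosome list had 9 of 32 higher, 3 lower and 20 neither, and 6 called in all with median scaling against 12. Cd63, a tetraspanin of late endosomes, was higher by at least 43.0-fold (adjusted p = 1.98e-10), and the proteases Ctsl (2.07 ± 0.41, adjusted p = 0.002) and Lgmn (2.01 ± 0.18, adjusted p = 1.35e-06) were higher, whereas Cd68, a common macrophage marker, did not pass (0.01 ± 0.19, 95% interval from -0.39 to 0.41, adjusted p = 0.986). Of 24 lipid genes 6 were higher and 3 lower. Abca1, the cholesterol exporter, was higher by at least 9.41-fold (adjusted p = 1.86e-07), and Apoc1, an apolipoprotein, was lower (-3.47 ± 0.41, adjusted p = 2.13e-05). Apoe lay just outside the threshold (0.48 ± 0.17, 95% interval from 0.12 to 0.84, adjusted p = 0.0522, or 0.00627 with the replicate block).

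Other metabolic lists gave mixed counts, beside 9.85% of all genes higher and 12.2% lower. Iron and heme genes had 4 of 16 higher and 0 lower. Hmox1, which breaks down heme (1.36 ± 0.23, adjusted p = 0.000609), Blvrb, a flavin reductase (1.35 ± 0.27, adjusted p = 0.00213), and Cd163 were among them. Eicosanoid genes, which make and sense prostaglandins and leukotrienes, had 10 of 19 higher, 3 lower and a median of 1.41. Ltc4s had levels of 2.54, 2.30, 2.27 and 2.52 in CCR2+ macrophages, against -0.55, -1.39, -1.09 and -0.97 in monocytes (3.41 ± 0.23, adjusted p = 5.07e-08). The cyclooxygenase Ptgs1 (2.76 ± 0.50, adjusted p = 0.000993, above background on 3 of 4 monocyte arrays) and the lipoxygenase Alox5 (2.60 ± 0.27, adjusted p = 6.01e-06) were higher, and Alox12 (-3.60 ± 0.78, adjusted p = 0.00347, above background on 2 of 4 CCR2+ arrays) and the leukotriene B4 receptor Ltb4r1 (-2.04 ± 0.39, adjusted p = 0.00129) lower. Glycolysis genes had 3 of 22 higher and 6 lower, 9 calls in all against 4 with median scaling. Gapdh did not pass (-0.01 ± 0.19, 95% interval from -0.42 to 0.41, adjusted p = 0.989).

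Cell cycle genes were higher in CCR2+ macrophages. Of 26 measured members 18 were higher, 0 lower and 8 passed neither way, with a median of 1.82, or 1.33 with bounds (1.26 to 2.22 by slide). Birc5, or survivin, had levels of 2.89, 1.30, 1.43 and 1.58 in CCR2+ macrophages, against -1.73, -0.97, -2.61 and -2.10 in monocytes (3.65 ± 0.42, adjusted p = 1.66e-05). The groups did not overlap for Birc5. Mki67, the proliferation antigen Ki-67 (2.45 ± 0.42, adjusted p = 0.000571), Ube2c, which marks mitotic proteins for degradation (3.73 ± 0.21, adjusted p = 6.58e-09, above background on 3 of 4 monocyte arrays), and Mcm6, a subunit of the replicative helicase (2.45 ± 0.32, adjusted p = 6.06e-05), were higher. Cdk1 did not pass (0.05 ± 0.40, 95% interval from -0.79 to 0.90, adjusted p = 0.95), but its probes disagreed, and with their mean it was 2.60 (adjusted p = 7.13e-08). CCR2+ replicate 1 was the highest of its group for 19 of 26 members, with summed linear signals of 47.1, 26.4, 28.4 and 32.3 on the CCR2+ arrays, against 11.5, 11.6, 9.60 and 10.7 on the monocyte arrays. Every CCR2+ array thus lay above every monocyte array. Between CCR2+ macrophages and the CCR2-negative populations limma called 0 members against MHCII-high and 0 against MHCII-low macrophages, with 10 and 3 at an unadjusted p under 0.05 and 4 and 0 called with the replicate block.

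**Figure D4:**
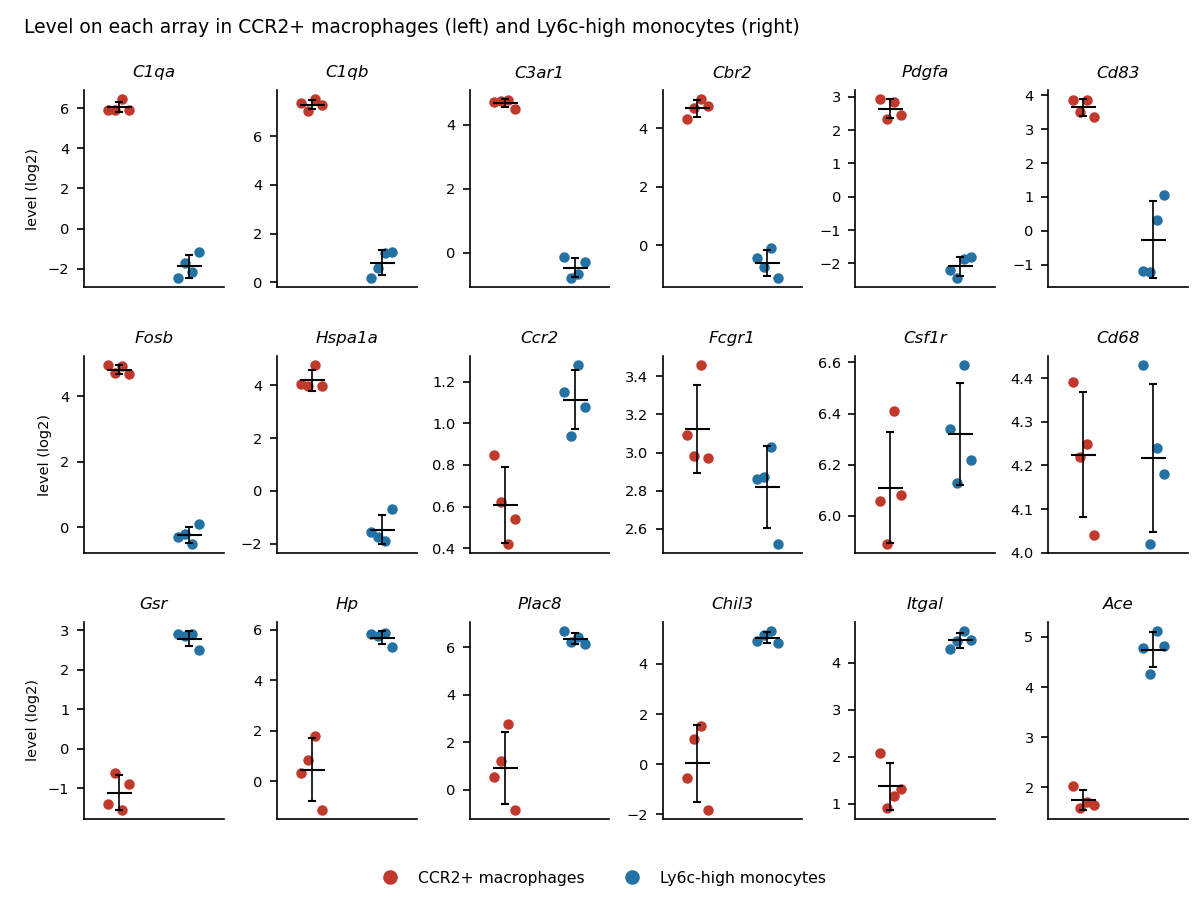
Level of 18 genes on every CCR2+ macrophage array (left) and Ly6c-high monocyte array (right), in log2 relative to the array's 75th percentile, with mean and SD as bars. C1qa, Fosb and Hspa1a were separated upwards, Plac8, Hp and Itgal downwards, and Cd68 and Csf1r overlapped.

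Markers of other heart cells were higher in CCR2+ macrophages, and those of red cells higher in monocytes. Of 17 measured cardiomyocyte markers 10 were higher and 0 lower, of 14 endothelial markers 9 higher and 1 lower, and of 10 fibroblast and mural markers 5 higher and 0 lower, or 8 higher with the replicate block. Mb, myoglobin, was at least 25.5-fold higher (adjusted p = 1.84e-10), Tnnt2, cardiac troponin T, at least 14.4-fold (adjusted p = 1.28e-09), and Dcn, the fibroblast proteoglycan decorin, at least 20.6-fold (adjusted p = 5.04e-09). The summed linear signal of the cardiomyocyte list was 27.1 to 39.8 on CCR2+ arrays and 8.18 to 9.59 on monocyte arrays. For the endothelial list it was 10.7 to 16.7 on CCR2+ arrays and 4.51 to 7.18 on monocyte arrays, and for the fibroblast list 11.1 to 18.3 and 5.82 to 7.32 in the same order. In monocytes Tnnt2, Actc1, Pln, Ckmt2 and Mb, Tie1, Ptprb and Robo4, and Col1a1, Dcn, Tcf21 and Rgs5 were not well above background on any array. The filter could keep these markers through heart arrays alone, so the counts called higher are not independent of it. Between CCR2+ and MHCII-high macrophages limma called 0 cardiomyocyte, 0 endothelial and 0 fibroblast and mural markers, with 5, 3 and 1 at an unadjusted p under 0.05 and 0, 0 and 0 called with the replicate block. Against MHCII-low macrophages the counts in the same order were 0, 0 and 0 called, 2, 3 and 1 at an unadjusted p under 0.05 and 0, 0 and 1 with the block. The part of these markers in the results above was not tested, and in a sorted bulk sample fewer cells of a type and less RNA per cell cannot be told apart.

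Haemoglobin genes were among those with the lowest differences. Hba-a1 had levels of -2.43, -1.65, -1.80 and -1.43 in CCR2+ macrophages, against 3.33, 4.58, 4.33 and 5.50 in monocytes (-6.26 ± 0.60, adjusted p = 2.36e-06), and Hba-a2, whose transcript is near-identical, was lower by a like amount (-6.72 ± 0.58, adjusted p = 7.59e-07). Hbb-b2 was at least 36.0-fold lower (adjusted p = 1.3e-07) and Alas2, the heme synthesis enzyme of red cell precursors, was lower (-2.67 ± 0.57, adjusted p = 0.00325, above background on 3 of 4 CCR2+ arrays). The red cell and platelet list had 1 of 10 higher and 3 lower, and summed to 17.0 to 20.8 on CCR2+ arrays and to 15.3, 32.7, 25.1 and 52.2 on monocyte arrays, and was most uneven among monocytes. It holds the platelet chemokine Pf4, a gene of resident macrophages too, which was higher in CCR2+ macrophages, at 4.08, 3.51, 3.97 and 3.88 in CCR2+ macrophages, against -1.59, 0.58, -0.61 and -0.35 in monocytes (4.35 ± 0.34, adjusted p = 2.15e-07). Neutrophil markers had 1 of 10 higher and 3 lower, and summed to 2.95 to 4.59 on CCR2+ arrays and 6.97 to 7.95 on monocyte arrays, with Prtn3 at least 5.61-fold lower (adjusted p = 0.000558). Mmp9 was not well above background in either group. Lymphocyte markers had 1 of 14 higher and 1 lower, 2 calls in all and 1 without CCR2+ replicate 1, 2 or 3 or monocyte replicate 1, but 5 with the replicate block. Beside them 9.85% of all genes were higher and 12.2% lower, without the block. Lymphocyte markers summed to 27.6 to 31.2 on CCR2+ arrays and 15.3 to 17.4 on monocyte arrays. Their median difference went the other way, at -0.21 (-0.36 to -0.10 by slide). Ccl5, a chemokine that macrophages make as well, was the member that passed higher (1.98 ± 0.24, adjusted p = 2.51e-05). The B cell and T cell genes Cd79a (-0.20 ± 0.36, 95% interval from -0.96 to 0.57, adjusted p = 0.768) and Cd3e (-0.55 ± 0.41, 95% interval from -1.42 to 0.33, adjusted p = 0.396) did not pass, although Cd79a was -1.40 (adjusted p = 0.0238) with the mean of its probes. The part of blood cells in the results was not tested.

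**Figure D5:**
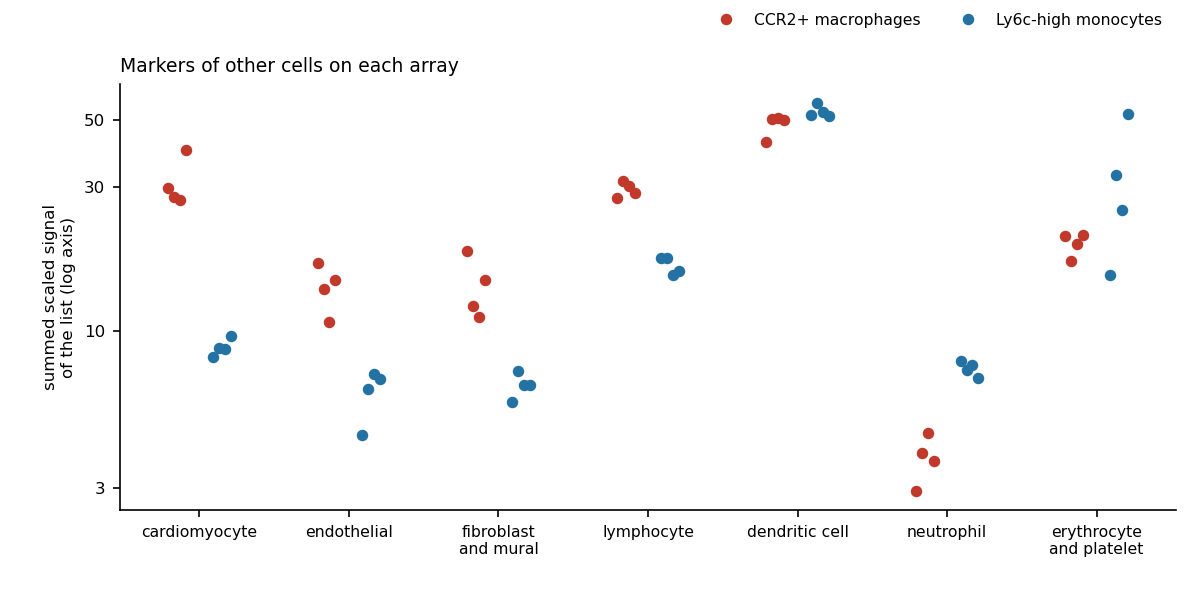
Summed signal of each marker list on every array, in linear units relative to the array's 75th percentile and on a log axis, for CCR2+ macrophages (left of each pair) and Ly6c-high monocytes. The cardiomyocyte, endothelial, fibroblast and lymphocyte sums were higher on all CCR2+ arrays, the neutrophil and dendritic cell sums on all monocyte arrays, and the red cell and platelet sums overlapped. The median difference was -0.21 for the lymphocyte list and 0.12 for the dendritic cell list, opposite in sign to their sums.

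Genes common to macrophages were in part higher. Of 33 core macrophage genes 15 were higher, 4 lower and 14 passed neither way, for a median of 0.40, or 0.24 with bounds. Cd14, the co-receptor for bacterial lipopolysaccharide, had levels of 3.86, 3.30, 3.72 and 2.96 in CCR2+ macrophages, against 1.28, -0.94, -1.22 and -0.59 in monocytes (3.83 ± 0.41, adjusted p = 8.38e-06), whereas its partner Tlr4 did not pass (0.23 ± 0.67, 95% interval from -1.21 to 1.66, adjusted p = 0.869, above background on 2 of 4 monocyte arrays), but was 1.06 (adjusted p = 0.0292) with the mean of its probes. The growth factor receptor Csf1r, on which macrophages depend, did not pass (-0.21 ± 0.18, 95% interval from -0.58 to 0.17, adjusted p = 0.461), and its ligand Csf1 was higher (1.57 ± 0.38, adjusted p = 0.0072, above background on 2 of 4 monocyte arrays). The list of such receptors and ligands had 1 of 9 higher and 1 lower, beside 9.85% of all genes higher and 12.2% lower. Of 35 myeloid transcription factors 8 were higher and 5 lower, or 13 and 8 with the replicate block. Id3 (2.42 ± 0.30, adjusted p = 3.77e-05) and Runx1 (1.59 ± 0.21, adjusted p = 6.4e-05) were higher beside Maf, and Klf13 was lower (-1.18 ± 0.22, adjusted p = 0.00127). Spi1, the factor PU.1, did not pass (-0.58 ± 0.21, 95% interval from -1.03 to -0.13, adjusted p = 0.0606, or 0.00252 with the replicate block). Without CCR2+ replicate 3 it was -0.69 (adjusted p = 0.0458). Fc receptors had 4 of 11 higher, Fcrls (4.05 ± 0.19, adjusted p = 7.16e-10) and Fcgr4 (1.51 ± 0.28, adjusted p = 0.00124) among them, or 5 higher and 2 lower with the block.

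The remaining lists had members called in both directions. Interferon-stimulated genes had 5 of 30 higher, 3 lower and a median of -0.15, with 8 calls in all and 5 without CCR2+ replicate 3 or monocyte replicate 2. Over all genes 22.0% were called, 9.85% higher and 12.2% lower, with a median of -0.10. Ifit1 was higher (1.35 ± 0.34, adjusted p = 0.0102, above background on 1 of 4 monocyte arrays) and Ifitm3 lower (-1.69 ± 0.20, adjusted p = 2.69e-05), while Isg15 (0.32 ± 0.20, 95% interval from -0.09 to 0.74, adjusted p = 0.28) and Irf7 (-0.14 ± 0.25, 95% interval from -0.68 to 0.40, adjusted p = 0.768) did not pass. Pattern recognition receptors had 6 of 25 higher and 6 lower. Clec4n, which binds fungal mannans (2.45 ± 0.39, adjusted p = 0.000309), and Siglec1, a sialic acid receptor (1.87 ± 0.33, adjusted p = 0.000733), were higher, and Tlr13 (-1.15 ± 0.18, adjusted p = 0.000297) was lower. Among Ms4a genes and tetraspanins 6 of 22 were higher and 8 lower. Ms4a7, found on tissue macrophages, was higher (4.42 ± 0.27, adjusted p = 1.93e-08), and Ms4a8a (-2.55 ± 0.37, adjusted p = 0.000128) and Ms4a4a (-2.37 ± 0.33, adjusted p = 0.000111) were lower.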

How the data were processed

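RNA of 16 sorted samples was hybridised to Agilent mouse arrays of 44397 spots in a single colour. Per the file headers, the deposited intensity values were extracted with Agilent Feature Extraction 11.5.1.1, which subtracted background, detrended each array and put substitute values at dim spots, with no scaling between arrays. The authors' deposited table of log2 values, for which the submitters' processing notes name Partek with no step or version, was used in no comparison. Each of its columns correlated with one array at 0.995 or more and with the array of its own label at 0.969 or less. No column matched its own label, 4 matched their own population and 12 another one. Its direction is that of the intensities, and its scaling and centring between arrays are unknown (column median 8.12).

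The log2 processed intensity, minus its 75th percentile on the array, was the level. The 1377 control spots and 110 of 39429 probes with outlier marks were left out. Probes well above background on at least 4 arrays were kept (27643 probes), and the brightest represented its gene. Different probes could disagree, as for Gaa, whose 3 probes gave differences from -1.15 to 0.99. Symbols came from RefSeq accessions for 27441 probes and otherwise from the file, and 17513 of the 22011 features tested had one. One limma 3.58.1 fit in R 4.3.3 over the 4 populations (12 residual degrees of freedom) gave every difference, called at a Benjamini-Hochberg adjusted p under 0.05. Replicate numbers are shared by all populations and coincide with slides. Deviations from the group means of same-numbered CCR2+ and monocyte arrays correlated at 0.239 to 0.359. Different-numbered arrays correlated at -0.377 to 0.364, highest for CCR2+ replicate 4 with monocyte replicate 2. CCR2+ replicate 1 and monocyte replicate 3 correlated at 0.327. The correlations thus do not single out the same-numbered pairs. The numbers, which are those of the slides, were taken to pair the arrays. The fit with the number as a block is given where it changes a call. Arrays give no counts, and the number of arrays limits the precision.

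Named genes were the 12 with the highest and the 12 with the lowest difference among named genes called with one sign on all 4 slides, plus any member of 35 gene lists (599 of 665 members measured). Members and lists were chosen with earlier results of these data known. Alternatives covered scaling (median, quantile), normexp background correction with offset 50, the filter, the probe rule, array weights, the 8 arrays alone, slide pairs, the block and leaving out each array.

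Some genes are not reported here.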

Additional observations from a re-analysis of the deposited data

Results flagged for a closer look

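Of 321 sets of 4 arrays, each 1 named gene in 1 of the 2 populations, 17 held an array far from the other 3, with a gap to its neighbour past Dixon's 95% critical value for 4 samples, as a share of the whole range. Chance gives about 1 in 20 such sets. All values are levels on the log2 scale relative to the array's 75th percentile.

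Of these, 5 were on CCR2+ replicate 3. C1qa was at 6.45 there and at 5.91 to 5.92 on the other CCR2+ arrays, Hspa1a at 4.77 against 3.96 to 4.04, and Itgb7 at 2.37 against 1.99 to 2.02. On the same array S1pr5 was at -6.05, against -3.11 to -2.90 on the others (above background on 3 of 4 CCR2+ arrays), and the endothelial receptor Tie1 at -2.0 against -1.08 to -0.97. On CCR2+ replicate 1, Cxcl16 was at 3.70 against 2.88 to 3.01 and Siglec1 at 4.21 against 3.42 to 3.55. Tcf21, a fibroblast factor, was at -3.45 on CCR2+ replicate 4 against -2.50 to -2.31.

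Among monocytes, replicate 4 was apart for 4 genes. Gsr was at 2.50 against 2.87 to 2.90, Hp at 5.30 against 5.76 to 5.85 and Mmp8 at 1.55 against 1.85 to 1.91, all low, while Vcan was high at 2.24 against 1.74 to 1.81. Monocyte replicate 3 was high for Ear2, at 4.17 against 3.39 to 3.48, for Fcgr4, at 2.69 against 1.66 to 1.74, and for Ube2c, at -2.23 against -2.96 to -2.89 (above background on 3 of 4 monocyte arrays). Monocyte replicate 2 was low for Fos, at -1.28 against 0.15 to 0.28, and for Gapdh, at 6.28 against 6.66 to 6.72.

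CCR2+ macrophages stood between monocytes and both CCR2-negative populations in 54 genes that were lower than in monocytes and in 65 that were higher. Each step passed its own test in the fit. By the same tests CCR2+ macrophages were above every other population in 15 genes and below every other one in 9.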

How the results depend on the processing

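The count of 4850 genes was 8601 with no filter on dim probes, 7468 with the replicate block and 1465 on slides 1 and 3 alone, where 919 were higher and 546 lower. The count of 2682 lower genes was 6255 with no filter and 4395 with the block. List members past the threshold fell to 178 on slides 1 and 3. Leaving out 1 array gave 3870 to 4498 genes, 1803 to 1973 higher and 2020 to 2525 lower, and 294 to 310 list members. The 54 genes below monocytes and above both CCR2-negative populations numbered 39 to 50 without 1 array, 104 with array weights, 96 with the block, 1 on slides 1 and 3 and 7 on slides 2 and 4. The 65 genes of the opposite order numbered 34 to 65 without 1 array, 136 with array weights, 28 with median scaling, 118 with the block, 0 on slides 1 and 3 and 9 on slides 2 and 4. Array weights, slide pairs and left-out arrays were added for these 2 counts after the data were seen. A fit on 1 slide pair holds 8 of the 16 arrays, and why slides 1 and 3 gave so few calls was not tested.

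Of 180 named genes 126 kept their call under all 20 alternatives. Most losses were on slides 1 and 3 (37 genes), with normexp (11 genes, among them Csf1, Ifit1, Timd4 and Tie1), on slides 2 and 4 (Ccl2, Ccl17, Cd300e, Col1a1, Dusp16, F13a1 and H2-Aa), with quantile scaling (Ccl6, Dusp16, Itgb2 and Ptprc), with median scaling (Ptprc) and on the 8 arrays alone (Cd300e, Dusp16 and Ptprc, or Dusp16 and Fabp4 with the block added). Flt3 turned to -1.24 with the mean of its probes and to -1.60 with normexp, and the cause was not tested. The block added calls for Apoe, Fcgr1, Nr4a1, S100a9 and Spi1 and changed no other call among named genes. The median over all genes was -0.10, and -0.16 with median scaling, -0.04 with quantile scaling, -0.25 with normexp and -0.27 with no filter.

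List counts that moved by over 1.5 times were those for lipid genes (9, against 14 with array weights or normexp), dendritic cell markers (4, against 7 with normexp), fibroblast and mural markers (5, against 3 with normexp and 8 with the block), interferon-stimulated genes (8, against 5 with normexp), iron and heme genes (4, against 7 with quantile scaling), Fc receptors (4, against 8 with quantile scaling and 7 with the block), lysosome genes (12, against 6 with median scaling), glycolysis genes (9, against 4 with median and 5 with quantile scaling), lymphocyte markers (2, against 4 with normexp or no filter and 5 with the block), CSF receptors and ligands (2, against 1 with median or quantile scaling or on slides 2 and 4), the inflammasome list (6, against 10 with the block) and myeloid transcription factors (13, against 21 with the block). Slides 1 and 3 moved 26 of the 35 lists. Differences of genes near background are bounds, not sizes, and 4 arrays a group leave small differences undecided.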

Other observations

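The columns of the authors' deposited log2 table were set against the scanner files by correlation over probes. The column labelled CCR2+ macrophages replicate 1 matched the array labelled MHCII-high replicate 1 best (0.999) and correlated at 0.962 with the array of its own label. The column labelled CCR2+ replicate 2 matched monocyte replicate 3 (0.995), and the column labelled CCR2+ replicate 3 matched MHCII-low replicate 2 (0.997). The column labelled CCR2+ replicate 4 stayed in its population and matched CCR2+ replicate 3. Of the columns labelled monocytes, 1 matched a monocyte array, replicate 4 under the label of replicate 3 (0.999). The marker levels of Mertk and Ly6c1 followed the labels of the scanner files, which does not check the labels among the heart populations. The cause of the mismatch was not tested.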
